A study of Mus musculus with 12 samples.

Results

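The genes described here encode the nuclear subunits and the Ndufaf-named assembly factors of respiratory complex I, measured in Min6 cells with and without a hairpin against Il22ra1. Members were taken by symbol, as every gene whose name starts with Ndufa, Ndufb, Ndufc, Ndufs, Ndufv, Ndufab or Ndufaf followed by a number. This gave 45 of the 24421 gene symbols counted: 36 complex I subunits, 7 assembly factors (Ndufaf1 to Ndufaf7), Ndufa4 and its paralog Ndufa4l2. Ndufa4 was long listed as a complex I subunit and is now assigned to complex IV (cytochrome c oxidase), so it and its paralog were kept apart from the 36. The 7 subunits encoded in mitochondrial DNA were not found among the symbols counted, so they could not be analysed here.

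Complex I oxidises NADH and passes the electrons through a flavin and a chain of iron-sulfur clusters to ubiquinone, and couples this to proton pumping across the inner mitochondrial membrane. It is L-shaped, with a matrix arm that carries the redox chemistry and a membrane arm that carries the proton channels, and many small accessory subunits wrap around a conserved core. In beta cells the respiratory chain links glucose breakdown to ATP production, which closes ATP-sensitive potassium channels and leads to insulin release.

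Min6 is an insulin-secreting mouse insulinoma line, labelled wild type. The 6 sh-Il22ra1 libraries came from cells infected with an adenovirus carrying a hairpin against Il22ra1, the ligand-binding chain of the interleukin-22 receptor, and the 6 sh-ctrl libraries from cells infected with a control hairpin adenovirus. Infection lasted 48 h in both groups, and both received 0.3 mM palmitate, a saturated fatty acid, for 24 h, so every value below is from palmitate-treated cells. The design asks how Il22ra1 signalling shapes transcription in these cells, and 1 cell line stands for both conditions. Nothing in the labels ties the 6 libraries of either group to separate cultures. The p-values therefore measure only how these libraries vary, and that variation may be technical. In bulk RNA, fewer cells of a kind and less RNA per cell cannot be told apart.

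Gene reads numbered 13108494 to 15887448 per library. Il22ra1 itself averaged 0.164 ± 0.0873 CPM in sh-Il22ra1 and 0.831 ± 0.256 CPM in sh-ctrl (SD, n = 6 each; 15 against 74 reads; two-sided exact permutation p = 0.00216, the smallest that 924 splits allow), where CPM is reads per 1e+06 gene reads scaled by TMM, edgeR's library normalization. Of 13102 genes tested, 6795 passed a Benjamini-Hochberg adjusted p of 0.05 in edgeR's quasi-likelihood test, which is 51.9% of them, with 3323 higher (25.4%) and 3472 lower (26.5%) in sh-Il22ra1. The median log2 fold change over all tested genes was -0.0043. Beta-cell markers were abundant, with Ins2 at 42876 CPM in sh-Il22ra1 and 49586 CPM in sh-ctrl. Of 8 such markers 4 fell, with log2 fold changes of -0.93 for Slc2a2, -0.63 for Iapp, -0.36 for Ins1 and -0.23 for Nkx6-1, and 1 rose, Slc30a8 at 0.24. Among markers of other cells, Prss2, Ptf1a, Amy2a5 and Hhex had no reads, while the summed level of 3 leukocyte markers ran from 5.28 to 7.88 CPM in sh-Il22ra1 and 18.2 to 26.3 CPM in sh-ctrl, nearly all of it Cd68, with Ptprc averaging 0.0902 CPM in sh-Il22ra1 and 0.0358 CPM in sh-ctrl. The summed level of 4 fibroblast markers ran from 0.717 to 1.64 CPM in sh-Il22ra1 and 2.29 to 4.46 CPM in sh-ctrl, and that of 6 markers of other islet cells, mostly Gcg, from 145 to 158 CPM in sh-Il22ra1 and 243 to 295 CPM in sh-ctrl. The acinar, duct and endothelial markers summed to at most 4.81 CPM per list in any library. Of these markers Cd68, Col1a1, Gcg and Sst were among those that fell. Their part in the results below was not tested.

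The starting stretches of 4 members are shown here: Ndufa4, which had the largest rise of all members, Ndufa11 and Ndufaf1, with the largest rise among the complex I subunits and among the assembly factors, and Ndufaf3, the member that fell. Each is the 250 bases before the start annotated in RefSeq on GRCm38.p6, read 5′ to 3′ on the gene's strand. For Ndufa4 the GENCODE annotation, used for gene positions below, places the start at 11907497. The last bases of its stretch therefore lie inside the gene as placed there. Capitals mark matches to any of 4 short motifs searched on both strands, namely GCATGCG (bound by NRF1), CCGGAAG (ETS factors), AAGATGG (YY1) and AAGGTCA (estrogen-related receptors).
Ndufa4, chr6:11907451-11907700, minus strand: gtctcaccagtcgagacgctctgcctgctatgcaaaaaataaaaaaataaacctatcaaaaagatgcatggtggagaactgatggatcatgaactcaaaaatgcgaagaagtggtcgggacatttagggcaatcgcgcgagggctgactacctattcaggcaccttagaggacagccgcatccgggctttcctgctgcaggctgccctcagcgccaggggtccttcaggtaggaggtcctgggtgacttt
Ndufa11, chr17:56717512-56717761, plus strand: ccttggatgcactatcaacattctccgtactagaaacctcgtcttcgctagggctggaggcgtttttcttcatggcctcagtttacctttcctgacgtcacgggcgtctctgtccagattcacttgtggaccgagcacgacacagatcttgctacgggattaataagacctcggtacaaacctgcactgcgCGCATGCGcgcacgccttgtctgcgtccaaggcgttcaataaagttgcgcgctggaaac
Ndufaf1, chr2:119662835-119663084, minus strand: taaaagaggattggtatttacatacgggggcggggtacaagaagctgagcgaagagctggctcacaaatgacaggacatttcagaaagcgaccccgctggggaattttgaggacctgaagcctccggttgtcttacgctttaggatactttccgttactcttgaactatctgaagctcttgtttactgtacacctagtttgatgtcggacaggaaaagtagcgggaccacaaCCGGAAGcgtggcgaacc
Ndufaf3, chr9:108567437-108567686, minus strand: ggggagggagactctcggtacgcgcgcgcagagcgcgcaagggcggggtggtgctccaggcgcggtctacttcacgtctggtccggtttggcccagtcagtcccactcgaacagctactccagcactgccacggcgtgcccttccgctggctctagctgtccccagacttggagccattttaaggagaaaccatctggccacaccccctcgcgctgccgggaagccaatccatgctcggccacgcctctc
The stretch of Ndufa11 holds GCATGCG on both strands, in overlapping matches that begin 59 and 58 bases before the start. That of Ndufaf1 holds CCGGAAG 18 bases before the start, and neither Ndufa4 nor Ndufaf3 holds any of the 4 motifs there. In windows of 300 bases that also take in 50 bases after the start, 17 of the 32 complex I subunits with a window held at least 1 motif (53.1%), compared with 33.7% of the 10008 tested genes with a window. AAGATGG was in 7 of the 32 (21.9%, against 8.28% of tested genes), AAGGTCA and GCATGCG in 3 each (9.38%, against 3.69% and 7.36%), and CCGGAAG in 4 (12.5%, against 19.6%). A match is a description of letters in the window, and the share was 10 of 20 among subunits that rose and 6 of 11 among those that did not pass the test. By motif, AAGGTCA was in 0 of the 20 that rose and 2 of the 11 that did not pass, and GCATGCG in 3 of the 20 and 0 of the 11.

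Most complex I subunits were modestly higher in sh-Il22ra1 cells. Of the 35 subunits tested, 23 rose (65.7%, where 25.4% of all tested genes rose), 0 fell (where 26.5% of all tested genes fell) and 12 did not pass the test. The median log2 fold change of the 35 was 0.27, against -0.0043 over all tested genes, and single subunits ranged from -0.14 to 0.48. In 32 of the 35 the difference was positive. SEs of these log2 fold changes ran from 0.0571 to 0.138, so many of the differences were only a few times their error. The 2 groups of libraries did not overlap for 4 subunits (11.4%), Ndufa11, Ndufa3, Ndufb6 and Ndufa6, all higher in sh-Il22ra1, a share close to the 13.5% of all tested genes whose groups lay apart in that direction.

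**Figure D1:**
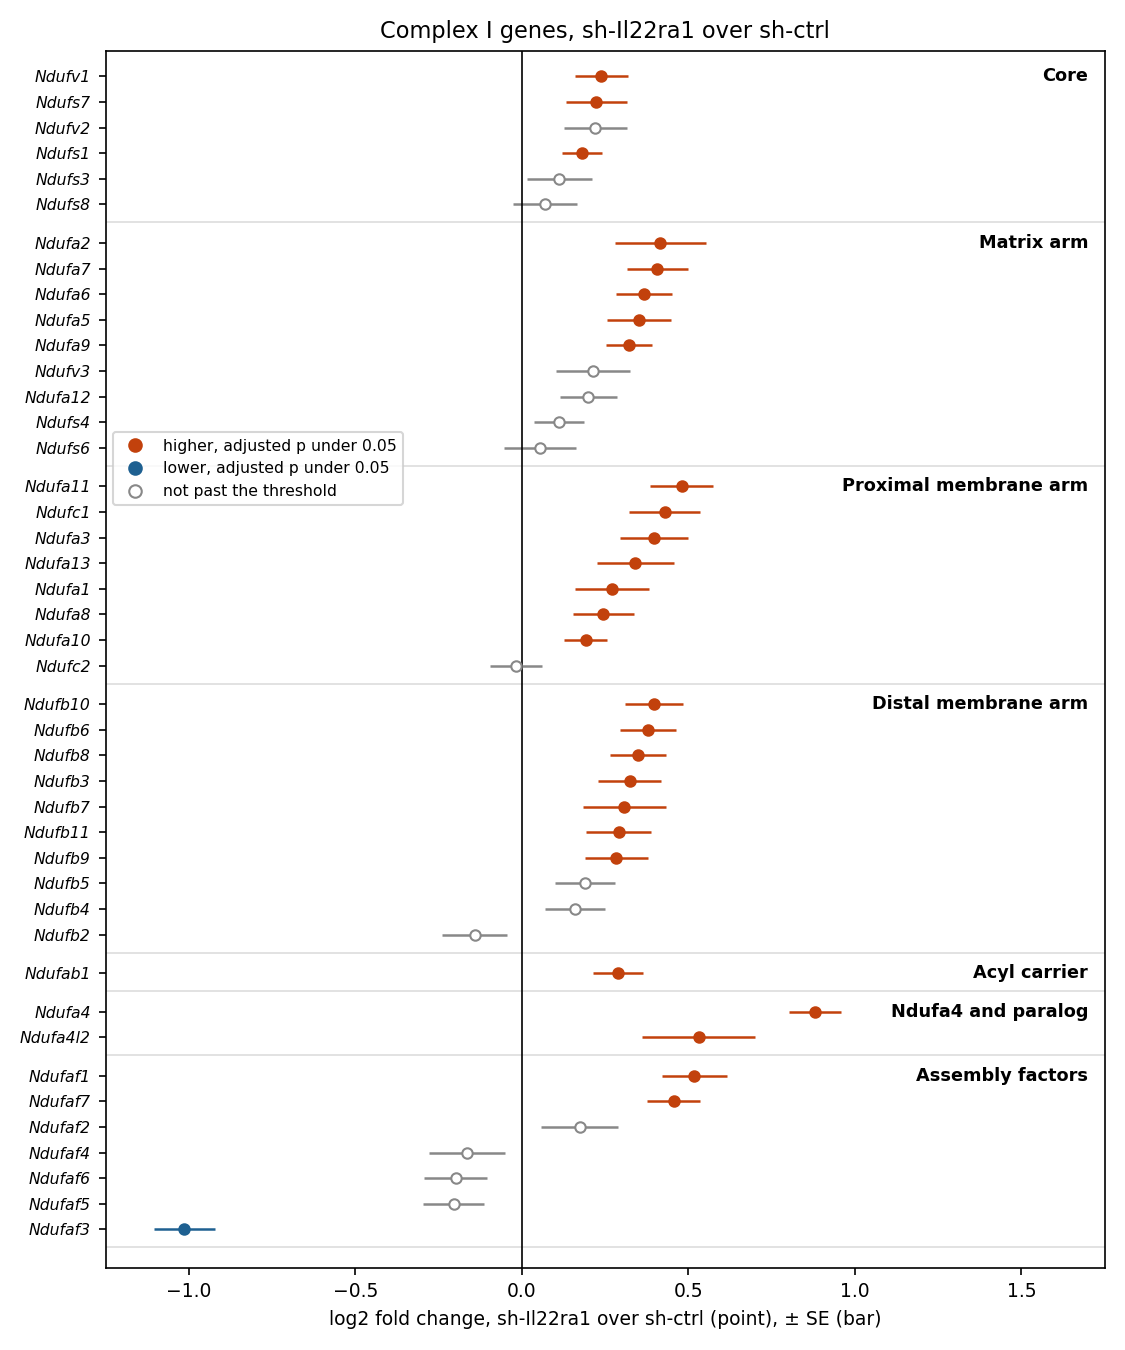
Log2 fold change of 43 tested members, sh-Il22ra1 over sh-ctrl (x axis), with ± 1 SE from edgeR as bars, 6 libraries per group, members grouped by place in the complex. Filled points passed the adjusted p of 0.05. Most subunits lie between 0.1 and 0.5, Ndufa4 lies at 0.88, and Ndufaf3 lies at -1.01.

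Of the 7 nuclear core subunits, 3 rose (42.9%, against 25.4% of all tested genes), with a median log2 fold change of 0.18. Ndufv1, which binds the flavin that takes electrons from NADH, averaged 277 ± 22.1 CPM in sh-Il22ra1 and 235 ± 31.0 CPM in sh-ctrl (SD, n = 6 each; log2 fold change 0.24, SE 0.0793, edgeR adjusted p = 0.0172). Ndufs1, the largest iron-sulfur subunit of the NADH-oxidising end, rose by 0.18 on the log2 scale (SE 0.0601, edgeR adjusted p = 0.0174). Ndufs7, which carries the last iron-sulfur cluster before ubiquinone, rose by 0.22 (SE 0.0913), with an edgeR adjusted p of 0.0474 close to the threshold. Ndufv2, the iron-sulfur partner of Ndufv1, did not pass, with a log2 fold change of 0.22 (SE 0.0946, edgeR adjusted p = 0.0583). Ndufs3 and Ndufs8, also core subunits, did not pass either. Their log2 fold changes were 0.11 for Ndufs3 and 0.07 for Ndufs8.

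In the matrix arm, 5 of 9 accessory subunits rose (55.6%, against 25.4% of all tested genes), with a median log2 fold change of 0.32. Ndufa2, which has a thioredoxin-like fold, ran from a lowest 129 CPM through a median of 144 to a highest 198 CPM in sh-Il22ra1, against 86.9, 106 and 162 CPM in sh-ctrl. The ranges overlapped broadly, and its log2 fold change of 0.42 had the largest SE among the subunits, 0.138 (edgeR adjusted p = 0.0167). Without sh-Il22ra1 replicate 2 its adjusted p was 0.0552. Ndufa7, a peripheral subunit, had 149, 164 and 185 CPM at the lowest, median and highest in sh-Il22ra1 and 102, 121 and 154 CPM in sh-ctrl (log2 fold change 0.41, SE 0.0919, edgeR adjusted p = 0.00118). The groups overlapped only through sh-ctrl replicate 4, the highest sh-ctrl library. Ndufa6 rose by 0.37, Ndufa5 by 0.35 and Ndufa9, which holds a bound nucleotide cofactor, by 0.32. Ndufv3, Ndufa12, Ndufs4 and Ndufs6 did not pass, with log2 fold changes of 0.21, 0.20, 0.11 and 0.06.

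Ndufs6, a zinc-binding subunit added late in assembly, showed the smallest positive difference. It had 48.1, 54.7 and 61.7 CPM at the lowest, median and highest in sh-Il22ra1, against 42.0, 50.3 and 73.0 CPM in sh-ctrl. The sh-ctrl libraries spanned the whole sh-Il22ra1 range (SE 0.109, edgeR adjusted p = 0.697).

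In the proximal part of the membrane arm, 7 of 8 tested accessory subunits rose (87.5%, against 25.4% of all tested genes). Their median log2 fold change was 0.31. Ndufa11, a membrane subunit near the middle of the complex, lies on chromosome 17 (56717767 to 56722141, plus strand, GRCm38) and shares 6.41% of its exon bases with a neighbouring gene. Its level was 264 CPM at the lowest, 284 at the median and 323 at the highest in sh-Il22ra1, and 168, 199 and 261 CPM in sh-ctrl. Every sh-Il22ra1 library lay above every sh-ctrl library, though the closest pair were 264 and 261 CPM. The log2 fold change was 0.48 (SE 0.0945, edgeR adjusted p = 3.51e-04), a ratio of 1.39 and the largest of the 35 subunits.

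Ndufc1 and Ndufc2, small membrane subunits that sit side by side, gave different values. Ndufc1 had 45.4, 53.4 and 53.9 CPM at the lowest, median and highest in sh-Il22ra1, against 31.1, 36.1 and 51.9 CPM in sh-ctrl, and rose by 0.43 (SE 0.106, edgeR adjusted p = 0.00233). Ndufc2 had 178, 203 and 210 CPM in sh-Il22ra1 and 170, 199 and 238 CPM in sh-ctrl, with a log2 fold change of -0.02 (SE 0.0776, edgeR adjusted p = 0.871). The sh-ctrl range of Ndufc2 enclosed the sh-Il22ra1 range. The difference between these 2 fold changes was not tested. The other proximal subunits rose by 0.40 (Ndufa3), 0.34 (Ndufa13, also known as GRIM-19), 0.27 (Ndufa1), 0.24 (Ndufa8) and 0.19 (Ndufa10). Ndufa13 shares 30.0% of its exon bases with Tssk6. How reads there were counted depends on the strand setting, which is not given in the sources used here.

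Ndufs5, a proximal subunit of the intermembrane-space side, was listed at 0 reads in all 12 libraries. Over all 177708321 gene reads a count of 0 allows up to 0.0169 CPM, for counting error alone. The annotated Ndufs5 transcript is 525 bases long, and 60.8% of it has a copy at least 98% identical in the processed pseudogene BC002163 on chromosome 16, which had 35 reads in sh-Il22ra1 and 22 in sh-ctrl. Whether reads of Ndufs5 were set aside as multiply aligned was not tested, and its 0 is not read as absence of the transcript.

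In the distal part of the membrane arm, 7 of 10 Ndufb subunits rose (70%, against 25.4% of all tested genes). The median log2 fold change of the 10 was 0.30. Those that rose were Ndufb10 (0.40), Ndufb6 (0.38), Ndufb8 (0.35), Ndufb3 (0.32), Ndufb7 (0.31), Ndufb11 (0.29) and Ndufb9 (0.28). The edgeR adjusted p of Ndufb7 was 0.0479. Ndufb6 shares 39.0% of its exon bases with Smim27. Ndufb5 and Ndufb4 did not pass, at 0.19 and 0.16.

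Ndufb2 had the most negative difference of the 35 subunits. It had 37.1, 42.0 and 45.4 CPM at the lowest, median and highest in sh-Il22ra1, against 36.4, 44.7 and 55.8 CPM in sh-ctrl. The sh-Il22ra1 values fell within the sh-ctrl range (log2 fold change -0.14, SE 0.0976, edgeR adjusted p = 0.233). Ndufab1, the mitochondrial acyl carrier protein, which is bound in both arms, rose by 0.29 (SE 0.0755, edgeR adjusted p = 0.00360).

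Grouped by name, 11 of 12 tested Ndufa subunits rose (91.7%), with a median of 0.35. Of 7 tested Ndufs subunits 2 rose (28.6%, near the 25.4% of all tested genes), with a median of 0.11. The difference between these name groups was noticed in the data and was not tested.

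Levels of the subunits also varied between libraries of the same group. The summed level of the 35 subunits was 5461 ± 378 CPM in sh-Il22ra1 and 4672 ± 652 CPM in sh-ctrl (SD, n = 6 each), and the ranges, 5071 to 5975 and 4036 to 5690 CPM, overlapped. The subunits moved together from library to library. Within sh-ctrl, replicates 1 and 4 held the highest value for 34 of the 35 subunits, and replicates 2 and 6 the lowest for all 35. Within sh-Il22ra1, replicates 2 and 6 held the highest for 32 and replicates 1 and 3 the lowest for 32. The summed level in sh-ctrl replicate 4, 5690 CPM, was above that of 4 of the 6 sh-Il22ra1 libraries.

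Library measures are given beside these levels. The share of reads without an alignment was 8.71% to 11.8% in sh-Il22ra1 and 12.8% to 17.3% in sh-ctrl, and within sh-ctrl it was highest in replicates 4 (17.3%) and 1 (16.3%). Between the groups, sh-Il22ra1 had the lower share and the higher subunit levels. Within sh-Il22ra1, replicates 2 and 6, the highest for most subunits, had 9.91% and 8.76%. Replicates 1 and 3, the lowest for most subunits, had 9.36% and 8.71%. The highest share in that group was 11.8%, in replicate 4. The 2 groups did not overlap in this share, so it cannot be told apart from the hairpin. The share of reads aligned outside counted genes ran from 3.72% in sh-Il22ra1 replicate 2 to 4.55% in replicate 3. Its order in sh-Il22ra1 was the reverse of that of the summed subunit levels. In sh-ctrl it was lowest in replicate 4 (3.26%) but 4.06% in replicate 1. The share of low alignment quality was highest in sh-Il22ra1 replicate 2 (6.82%) and sh-ctrl replicate 4 (5.30%), with 5.13% in sh-ctrl replicate 6. The subunits have short transcripts, with a median of 861 bases against 2942 bases over all tested genes. Among 540 other tested genes of at most 861 bases, 184 rose (34.1%) and 65 fell (12.0%), with a median log2 fold change of 0.16. Their median level moved with that of the subunits from library to library. In sh-ctrl replicate 4 both stood 0.31 above the sh-ctrl mean on the log2 scale, and in sh-Il22ra1 replicate 6 the subunits stood at 0.42 and the short genes at 0.23. The median of the subunits less that of the other short genes was 0.06 to 0.19 in the 6 sh-Il22ra1 libraries. In sh-ctrl it ran from -0.03 to 0.02, but both sets were centred on their sh-ctrl means, which holds those values near 0. The other short genes were not matched to the subunits, whose transcripts reach 3479 bases, and they include short genes of other respiratory complexes. The difference between the 2 sets was not tested. The part of alignment rate and of the other library measures in the result was not tested.

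**Figure D2:**
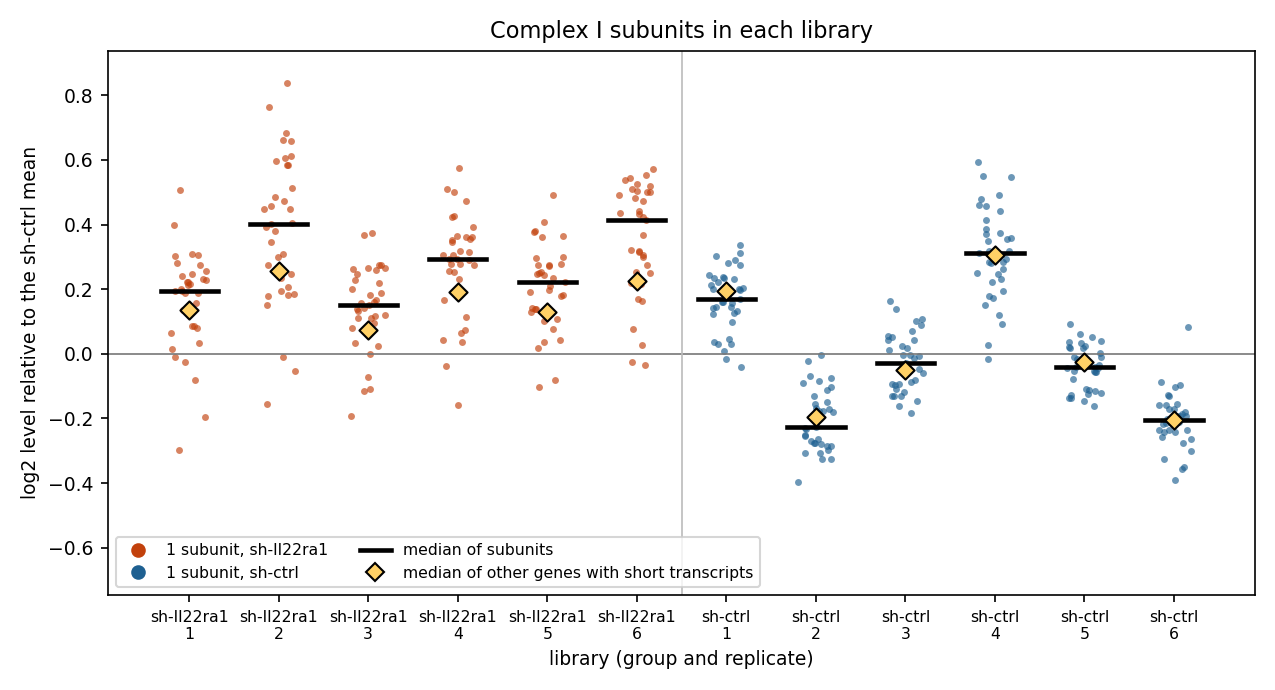
Log2 level of each of the 35 subunits (points) in each of the 12 libraries, relative to that subunit's sh-ctrl mean (y axis), with the median of the subunits (black line) and the median of 540 other tested genes with transcripts of at most 861 bases (diamond). The sh-Il22ra1 medians run from 0.15 to 0.42, and sh-ctrl replicates 1 and 4, at 0.17 and 0.31, lie among them.

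With a per-library adjustment for transcript length and GC content, 24 of the 35 subunits rose, with a median of 0.21. Of all 13102 tested genes, 4385 then rose and 3306 fell, with a median of 0.04. Then 3 subunits fell, Ndufc2 and Ndufb2 among them, which they did not without the adjustment. Without sh-ctrl replicates 1 and 4, 32 of the 35 rose, with a median of 0.39, and 3781 of 13255 tested genes rose. Without sh-Il22ra1 replicate 6, 13 of the 35 rose, with a median of 0.21, and 2881 of 13180 tested genes rose. Across 22 alternatives, 12 of the 23 called subunits rose every time, namely Ndufa3, Ndufa5, Ndufa6, Ndufa7, Ndufa9, Ndufa11, Ndufab1, Ndufb3, Ndufb6, Ndufb8, Ndufb10 and Ndufc1. Ndufa1, Ndufb7, Ndufs7 and Ndufa8 lost the call in 11, 10, 9 and 7 of the 22.

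Ndufa4, a subunit now placed in complex IV, had a larger fold change than any of the 35 complex I subunits. It lies on chromosome 6 (11900292 to 11907497, minus strand, GRCm38), shares no exon bases with another annotated gene and has no near-identical copy among annotated transcripts. Its level was 172 CPM at the lowest, 197 at the median and 221 at the highest in sh-Il22ra1, against 84.3, 109 and 117 CPM in sh-ctrl. No sh-ctrl library came near the sh-Il22ra1 range. The log2 fold change was 0.88 (SE 0.0776, edgeR adjusted p = 3.63e-08), a ratio of 1.84. With the length and GC adjustment it was 0.71, and without sh-ctrl replicates 1 and 4 it was 0.92. In sh-ctrl replicates 1 and 4, the highest for most subunits, Ndufa4 stood at 117 and 111 CPM. It had 108 to 111 CPM in replicates 2, 3 and 5 and 84.3 CPM in replicate 6, as the plot of levels by library shows. Within sh-Il22ra1, Ndufa4 was highest in replicates 6 and 2 (221 and 207.5 CPM) and lowest in replicates 1 and 3 (172 and 182 CPM). The same libraries were highest and lowest for most subunits.

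Ndufa4l2, a paralog induced by low oxygen in many cells, was far less abundant. It had 4.19, 5.96 and 6.71 CPM at the lowest, median and highest in sh-Il22ra1, against 2.83, 3.88 and 5.88 CPM in sh-ctrl. It rose by 0.53 (SE 0.170, edgeR adjusted p = 0.0141), with overlapping groups.

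Of the 7 Ndufaf assembly factors, 2 rose (28.6%, near the 25.4% of all tested genes), 1 fell (14.3%, against 26.5%) and 4 did not pass. Their median log2 fold change was -0.16. Counts this small and this near to those of all genes are not read as a pattern of the list, and the genes are described singly. Their summed level was 148 ± 7.49 CPM in sh-Il22ra1 and 165 ± 20.6 CPM in sh-ctrl (SD, n = 6 each).

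Ndufaf3, which acts with Ndufaf4 early in assembly on the ubiquinone-binding module, fell. It lies on chromosome 9 (108565537 to 108567434, minus strand, GRCm38). Its level was 22.3 CPM at the lowest, 25.3 at the median and 28.3 at the highest in sh-Il22ra1, against 41.3, 51.1 and 60.1 CPM in sh-ctrl. The highest sh-Il22ra1 library lay well below the lowest sh-ctrl library. Groups that did not overlap, by any gap, were seen in this direction for 14.6% of all tested genes. The log2 fold change was -1.01 (SE 0.0921, edgeR adjusted p = 5.39e-08), a ratio of 0.495. Ndufaf3 shares 2.65% of its exon bases with Impdh2 on the opposite strand, and the strand setting of the counting is not given in the sources used here. Impdh2 rose by 0.21 (SE 0.0582, edgeR adjusted p = 0.00488), in the other direction, and Dalrd3, the neighbour on the other side, rose by 0.19 (SE 0.0697, edgeR adjusted p = 0.0281). Ndufaf4, its partner, had 20.9 ± 3.16 CPM in sh-Il22ra1 and 23.5 ± 3.96 CPM in sh-ctrl (SD, n = 6 each), which did not pass (log2 fold change -0.16, SE 0.115, edgeR adjusted p = 0.240).

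Ndufaf1, a scaffold of the assembly intermediate that builds the inner membrane arm, rose. It lies on chromosome 2 (119655446 to 119662827, minus strand, GRCm38). It had 16.4, 19.5 and 20.6 CPM at the lowest, median and highest in sh-Il22ra1, against 11.6, 12.6 and 17.0 CPM in sh-ctrl. The ranges met only where the lowest sh-Il22ra1 library fell below the highest sh-ctrl library (log2 fold change 0.52, SE 0.0971, edgeR adjusted p = 2.22e-04). Ndufaf7, a methyltransferase needed for assembly, lies on chromosome 17 (78937136 to 78948052, plus strand, GRCm38). It had 32.7, 34.0 and 36.8 CPM in sh-Il22ra1 and 21.7, 24.1 and 29.0 CPM in sh-ctrl. All 6 sh-Il22ra1 libraries lay above all 6 sh-ctrl libraries (log2 fold change 0.46, SE 0.0797, edgeR adjusted p = 1.13e-04).

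The remaining factors did not pass. Ndufaf5, which hydroxylates Ndufs7, had a log2 fold change of -0.20 (SE 0.0909, edgeR adjusted p = 0.0670), and Ndufaf6, an early factor, of -0.20 (SE 0.0940, edgeR adjusted p = 0.0837). Both passed as lower with the length and GC adjustment. Ndufaf2, which stands in for its paralog Ndufa12 during assembly, had a log2 fold change of 0.17 (SE 0.116, edgeR adjusted p = 0.219), and 65.7% of its exon bases overlap an annotated lincRNA on the opposite strand. The gene 1810043H04Rik, whose current name is Ndufaf8 but whose listed symbol falls outside the selection, rose by 0.32 (SE 0.129, edgeR adjusted p = 0.0460).

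**Figure D3:**
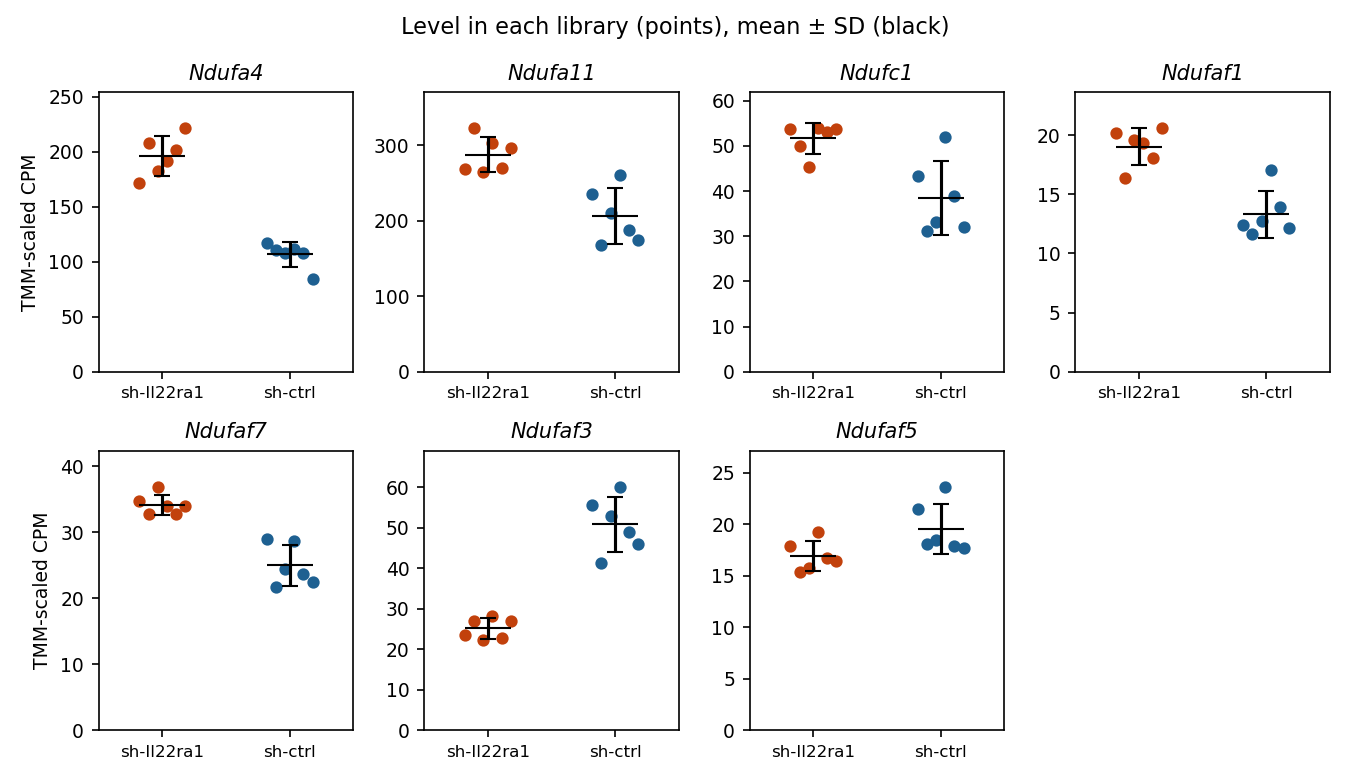
Level in TMM-scaled CPM (y axis, from 0) in each library (points), with mean ± SD in black, for 7 members in the 6 sh-Il22ra1 libraries (left in each panel) and 6 sh-ctrl libraries (right). The groups lie apart for Ndufa4, Ndufa11, Ndufaf7 and Ndufaf3, with Ndufaf3 lower in sh-Il22ra1, and overlap for the others.

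Assembly factors with other names were mostly higher in sh-Il22ra1. Of 14 tested, 9 rose (64.3%, against 25.4% of all tested genes), 1 fell (7.14%, against 26.5%) and 4 did not pass, with a median log2 fold change of 0.26. Nubpl, which delivers iron-sulfur clusters to complex I, averaged 18.2 ± 1.14 CPM in sh-Il22ra1 and 10.7 ± 2.22 CPM in sh-ctrl (SD, n = 6 each; log2 fold change 0.78, SE 0.117, edgeR adjusted p = 2.25e-05). Atp5sl, the listed symbol of the distal membrane arm factor Dmac2, rose by 0.48, Aifm1, a flavoprotein of protein import, by 0.39, and Timmdc1, a membrane arm factor, by 0.32. Acad9, a flavoprotein that works in the same intermediate as Ndufaf1, averaged 27.1 ± 1.44 CPM in sh-Il22ra1 and 31.3 ± 2.23 CPM in sh-ctrl and fell (log2 fold change -0.21, SE 0.0683, edgeR adjusted p = 0.0167). Ecsit, the other scaffold of that intermediate, did not pass, at 0.01.

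Compared per kilobase of transcript, the subunit mRNAs were far from equal in level. The 35 had a median of 134 CPM per kilobase in sh-Il22ra1 and 108 in sh-ctrl. Among the highest levels were those of Ndufa11 (528 CPM per kilobase in sh-Il22ra1 and 379 in sh-ctrl) and Ndufb8 (513 in sh-Il22ra1 and 403 in sh-ctrl). The lowest were those of Ndufs1 (19.1 in sh-Il22ra1 and 16.9 in sh-ctrl), Ndufs4 (32.6 in sh-Il22ra1 and 30.2 in sh-ctrl) and Ndufab1 (42.1 in sh-Il22ra1 and 34.5 in sh-ctrl). Highest and lowest differed 27.6-fold in sh-Il22ra1 and 23.8-fold in sh-ctrl, and the order was nearly the same in both (Spearman's rho across the 35 genes 0.974, a description of genes that share libraries). The transcript chosen sets some of these levels, since with its shortest coding transcript Ndufab1 stood at 103 in sh-Il22ra1 and 84.6 in sh-ctrl, and with its longest Ndufb8 stood at 163 in sh-Il22ra1 and 128 in sh-ctrl. With its longest, Ndufb2 stood at 9.57 in sh-Il22ra1 and 10.6 in sh-ctrl, below Ndufs1, so the lowest subunit and the span between highest and lowest depend on that choice. Across the 35 subunits the log2 fold change ran with shorter transcripts (rho -0.44 with length) and showed little relation to GC content (rho 0.06). The same rho with length over 13029 tested genes was -0.24.

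**Figure D4:**
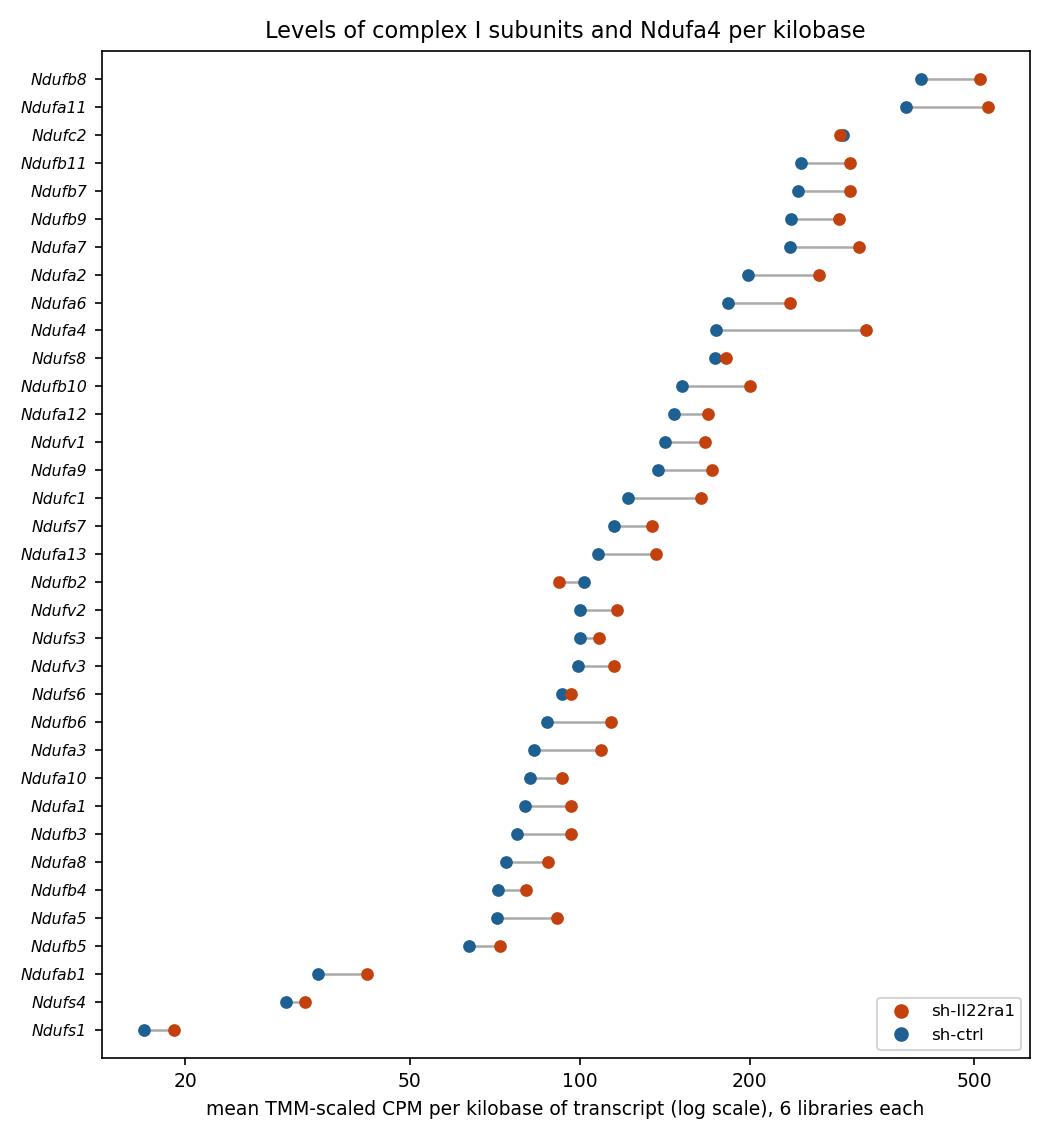
Mean level per kilobase of transcript (x axis, log scale, TMM-scaled CPM per kilobase, 6 libraries per group) of 34 subunits and Ndufa4, ordered by sh-ctrl level, for sh-Il22ra1 and sh-ctrl. Levels run from 16.9 to 528, and most sh-Il22ra1 points lie to the right of their sh-ctrl points, with Ndufc2 and Ndufb2 to the left.

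Genes of the other respiratory complexes were also mostly higher in sh-Il22ra1, where 25.4% of all tested genes rose and 26.5% fell. All 4 complex II genes rose, with a median log2 fold change of 0.37, and Sdhc, a membrane anchor, rose by 0.54. In complex III 8 of 9 rose (median 0.37), including Cyc1 at 0.48 and the Rieske protein Uqcrfs1 at 0.37. In complex IV 9 of 10 rose (median 0.36), including Cox7b at 0.62, so Ndufa4 at 0.88 was higher than any of the 10. In ATP synthase 12 of 16 rose (median 0.33), and Usmg5, a small membrane subunit, fell by 0.77 (SE 0.0799, edgeR adjusted p = 2.70e-07). Whether complex I differs from these complexes was not tested.

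Enzymes and factors that act around the complex are given for their own values, since their counts are small. Of 5 tested dehydrogenases that also reduce ubiquinone, 1 rose (20%, against 25.4% of all tested genes) and 2 fell (40%, against 26.5%), with Gpd2, the mitochondrial glycerol phosphate dehydrogenase, at -0.36 and Sqrdl, which oxidises sulfide, at -0.43. Both tested supercomplex factors, Cox7a2l and Higd2a, did not pass, at 0.03 and 0.12. Of 8 regulators known for respiratory chain promoters, 1 rose (12.5%, against 25.4%) and 3 fell (37.5%, against 26.5%). Esrra, an estrogen-related receptor, averaged 85.5 ± 8.71 CPM in sh-Il22ra1 and 44.6 ± 1.80 CPM in sh-ctrl (SD, n = 6 each; log2 fold change 0.94, SE 0.0692, edgeR adjusted p = 3.28e-09). Nrf1 fell by 0.31, Yy1 by 0.30 and the coactivator Ppargc1a by 0.44, with edgeR adjusted p of 1.68e-04, 6.75e-04 and 0.0392. Cyb5r3, the NADH-dependent reductase named in the study's title, averaged 82.1 ± 5.41 CPM in sh-Il22ra1 and 578 ± 43.1 CPM in sh-ctrl (SD, n = 6 each; log2 fold change -2.82, SE 0.0665, edgeR adjusted p = 8.58e-16).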

How the data were processed

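RNA from 12 Min6 libraries was measured by paired-end sequencing, per the labels' protocols. The submitters' processing notes name the aligner HISAT2 2.0.5, the counter HTSeq and the build mm10, with annotation and strand setting not given in the sources used here. The deposited files of the authors hold whole-number read counts for 24421 gene symbols and 5 rows that name no gene, of which reads without an alignment made 8.71% to 17.3% of a file. These rows entered neither library sizes nor tests. A deposited CPM table of the authors gave the same whole reads (100% of values within 0.001 reads) and was not tested separately.

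The count test was that of edgeR 4.0.16 (R 4.3.3), with filterByExpr (minimum count 10, minimum total 15), TMM scaling, glmQLFit and glmQLFTest (two-sided) over 13102 genes, and Benjamini-Hochberg adjustment at 0.05. The SE is the log2 fold change divided by the square root of F. Simulated counts with known changes were used to test the script. Intervals and limits of a count of 0 (3 reads) cover counting error only. Levels per kilobase divide the scaled CPM by the length of 1 transcript a gene. Lengths, positions, exon overlap and copies (blastn 2.17.0, at least 98% identity over 100 bases) came from GENCODE M21 on GRCm38, the same build as mm10. Promoter windows from RefSeq matched 39 of 45 members. Alternatives were RLE and upper-quartile scaling, DESeq2 1.42.0, limma-voom (limma 3.58.1), other filters, each library left out, sh-ctrl replicates 1 and 4 left out, a replicate block, and spline offsets on length and GC content.

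Members, lists, alternatives and the rule for named genes were chosen with earlier results of these data known. The rule gave library values to Ndufa4, the 4 largest and 4 smallest changes among subunits and the called assembly factors, named core subunits always, and took up to 4 called genes with the smallest p from each other list. The values of some genes that the rule names are not reported here. Ndufa4l2, Ndufab1, Ndufaf4, the neighbours of Ndufaf3 and other members were added as members or neighbours. Python 3.11.15 with pandas 2.3.3 and matplotlib was used for summaries and figures.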

Additional observations from a re-analysis of the deposited data

Results flagged for a closer look

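Within a group of 6 libraries, 7 of 92 sets of values (those of 44 members and 2 summed levels in each group) held a library that lay far from the other 5 (gap to the nearest over the range above 0.625), where chance gives about 1 in 20. Ndufa4 was lowest in sh-ctrl replicate 6, at 84.3 CPM. Ndufa8 and Ndufs3 were highest in sh-ctrl replicate 4, at 85.7 and 144 CPM. Ndufab1 and Ndufb4 were highest in sh-Il22ra1 replicate 6, at 161.5 and 93.5 CPM. Ndufaf6 was lowest in sh-Il22ra1 replicate 2, at 13.8 CPM, and Ndufs1 was lowest in sh-Il22ra1 replicate 4, at 46.0 CPM.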

How the results depend on the processing

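Subunits called numbered 13 to 28 with 1 library left out, lowest without sh-Il22ra1 replicate 6 and highest without sh-ctrl replicate 4, and 20 to 32 under the other alternatives. Assembly factors called numbered 3 or 4 with 1 library left out, and 5 with the length and GC offsets, alone or with the replicate block, because Ndufaf5 and Ndufaf6 then fell. All genes called numbered 6231 to 7491 with 1 library left out and 7691 with the offsets (4385 higher and 3306 lower), which moved the median log2 fold change of all genes by 0.0450. Ndufa4 ranged from 0.71 to 0.92 and Ndufaf3 from -1.07 to -0.93, past the threshold in all 22 alternatives, and 0 called members changed sign. After each gene's group mean was subtracted from its log2 CPM, same-numbered libraries of the 2 groups correlated at -0.0328 to 0.229. Replicates 1 and 4 of sh-Il22ra1 correlated best with the same number in sh-ctrl, and the others with a different number. Replicate numbers were therefore not taken as pairs in the main test. The replicate block gave 25 subunits, 4 assembly factors and 7029 genes called, and 0.88 for Ndufa4. Il22ra1 kept its direction, with exact permutation p of 0.00216 to 0.00433. Depth limits Ndufa4l2 most, which rests on 42 to 99 reads per library. The cause of the changes in counts was not tested.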
